A study of Mus musculus with 20 samples.

Results

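Oxidative phosphorylation is the set of reactions by which mitochondria make ATP from oxygen. Complex I (NADH dehydrogenase) and complex II (succinate dehydrogenase) take electrons from the breakdown of fuel, complex III (cytochrome bc1) and complex IV (cytochrome c oxidase) pass them on to oxygen, and the proton gradient built on the way drives complex V, the ATP synthase. Most subunits are encoded in the nucleus, a few in the mitochondrial genome. Photoreceptors are among the most energy-demanding cells of the body, and in mice their mitochondria are packed into the inner segment, a part of the cell that was dissected here together with the photoreceptor nuclei and outer segments.

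The genes described are those whose platform symbol begins with Nduf followed by a, b, c, s or v and a digit, with Uqcr, with Cox and a digit of 4 to 8, or with Atp5, or is one of Sdha, Sdhb, Sdhc and Sdhd. This gave 81 of the 19938 genes that had a probe set carrying their symbol alone: 33 of complex I, 4 of complex II, 8 of complex III, 17 each of complexes IV and V, and the pair Ndufa4 and Ndufa4l2. Ndufa4 was first described as part of complex I and is now counted with complex IV, so the pair is given apart. A gene was tested when a probe set had a log2 intensity over 5 on at least 2 of the 20 arrays, which 72 of the 81 passed: 27 of complex I, 3 of complex II, all 8 of complex III, 15 of complex IV, all 17 of complex V and both of the pair. The 9 that were too dim were Ndufa1, Ndufa2, Ndufa9, Ndufb2, Ndufb3 and the core subunit Ndufv2 of complex I, the iron-sulfur subunit Sdhb of complex II, and Cox7a2 and Cox7b2 of complex IV, with median intensities of 6.95 to 19.5. The 13 subunits encoded in mitochondrial DNA were looked up too, and 0 of them were among the genes tested.

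The arrays hold total RNA from retinas of adult C57BL/6 mice aged 7 to 8 weeks. The mice had been adapted either to light, for 6 h at 450 lux, or to darkness, for 3 h at no more than 0.4 lux, and all groups shared strain and age. The layers cut out by laser capture microdissection were the photoreceptors (nuclei with inner and outer segments), the inner nuclear, the inner plexiform and the ganglion cell layer. The whole retina was a further sample type, and the labels do not say whether its RNA was also taken by laser capture. Every tissue had 2 light-adapted and 2 dark-adapted arrays, which makes 10 groups. The labels do not say how many animals stand behind an array or whether arrays share animals, so p-values measure the spread between these samples, which may be technical. In such bulk samples, fewer cells of a type and less RNA per cell cannot be told apart.

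The photoreceptor and ganglion cell layers carried their defining transcripts, and the inner plexiform layer was set apart least clearly. The bipolar gene Trpm1 was at 6.01 to 6.98 in the inner nuclear layer and at 3.97 to 5.75 in the other layers. The amacrine gene Tfap2a was at 5.31 to 6.26 in the inner plexiform layer and at 4.22 to 5.3 in the others. The inner plexiform layer also held the ganglion cell gene Nefl at up to 6.94 and the Müller glia gene Rlbp1 at up to 7.17. The photoreceptor gene Rcvrn was at a log2 intensity of 8.59 to 9.29 in the photoreceptor layer and at 4.47 to 6.34 in the other layers, and the ganglion cell gene Thy1 was at 8.96 to 9.27 in the ganglion cell layer and at or near the floor of 3 in the photoreceptor and inner nuclear layers. The other layers were not free of rod transcripts: the summed intensity of the 13 measured rod markers of 15 was 9964 to 10874 in the photoreceptor layer, 1335 to 3066 in the inner nuclear, 1531 to 2620 in the inner plexiform and 1378 to 3484 in the ganglion cell layer. Some arrays stood apart. In 5 light-adapted arrays (replicate 1 of the photoreceptor, inner nuclear and whole retina groups and both of the ganglion cell layer) Y-linked probe sets had a median intensity of 192.2 to 306.2, against 8.6 to 25.05 in all others. Both light-adapted inner plexiform layer arrays, with medians of 0.738 and 0.768, and replicate 2 of the light-adapted whole retina, with 0.721, had the lowest correlations with arrays of other groups. Results are therefore also given without these arrays where the outcome changes.

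Differences below are log2 differences between group means with the standard error of the fit, so that a difference of 1 is 2-fold, and levels are log2 intensities with the standard deviation (SD) over 4 arrays. A gene is called higher or lower when its p-value from limma, adjusted by the Benjamini-Hochberg method over all 15057 genes tested, was under 0.05. Levels of different genes are not compared, because probe sets differ in brightness. Where a gene had several probe sets, as 16 of the 81 did, the one with the highest mean was used. RefSeq lists pseudogenes named after Atp5c1, Atp5k, Atp5l, Atp5pb, Cox5b, Ndufa12 and Uqcrh, whose values could hold signal from such copies. Copies under other names were not searched for, and where the probe sets lie was not checked. The values of the other genes could therefore hold such signal too.

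The photoreceptor layer was set against the average of the 3 inner layers to ask whether these transcripts stand higher where photoreceptors lie. Of the 72 genes tested, 10 were higher in the photoreceptor layer and 0 lower, that is 13.9% higher where 7.26% of all genes were higher and 5.69% lower. They came from complexes I, III, IV and V, and Ndufa4, the respiratory chain subunit with the largest difference, was 2.42-fold higher. The median difference over the 72 genes was 0.16, against -0.06 over all genes, and 50 of them (69.4%) had a positive difference, against 42.3% of all genes. The remaining genes did not pass the test.

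Ndufa4 is a small subunit bound to cytochrome c oxidase. In the photoreceptor layer its 2 light-adapted arrays read 8.30 and 8.31 and its 2 dark-adapted arrays 8.75 and 8.37. The ganglion cell layer followed with 7.65 and 7.94 in light and 7.62 and 7.73 in darkness, the inner nuclear layer with 6.90 and 7.30 in light and 6.42 and 7.37 in darkness, and the inner plexiform layer with 6.06 and 6.23 in light and 7.72 and 6.96 in darkness. All 4 photoreceptor arrays lay above all 12 arrays of the other layers. The difference was 1.27 ± 0.18 (limma adjusted p = 9.2e-05, 4 arrays against 12), and it was 1.29 with only the light-adapted arrays (adjusted p = 0.0014) and 1.26 with only the dark-adapted ones (adjusted p = 0.033). The whole retina read 8.01, 7.94, 8.06 and 7.43.

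Ordered by mean over 4 arrays, with the SD, Ndufa4 was at 8.43 ± 0.21 in photoreceptors, 7.86 ± 0.29 in the whole retina, 7.74 ± 0.15 in the ganglion cell layer, 7.00 ± 0.44 in the inner nuclear layer and 6.74 ± 0.76 in the inner plexiform layer. Among the layers, neighbours in this order were not separated by limma: the photoreceptor layer stood 0.70 ± 0.21 from the ganglion cell layer (adjusted p = 0.058), the inner nuclear layer -0.74 ± 0.21 from the ganglion cell layer (adjusted p = 0.25) and 0.25 ± 0.21 from the inner plexiform layer (adjusted p = 0.54). Steps further apart were called: the photoreceptor layer was higher than the inner nuclear layer by 1.44 ± 0.21 (adjusted p = 0.00041) and than the inner plexiform layer by 1.69 ± 0.21 (adjusted p = 6.3e-05), and the inner plexiform layer fell below the ganglion cell layer with -0.99 ± 0.21 (adjusted p = 0.022).

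**Figure D1:**
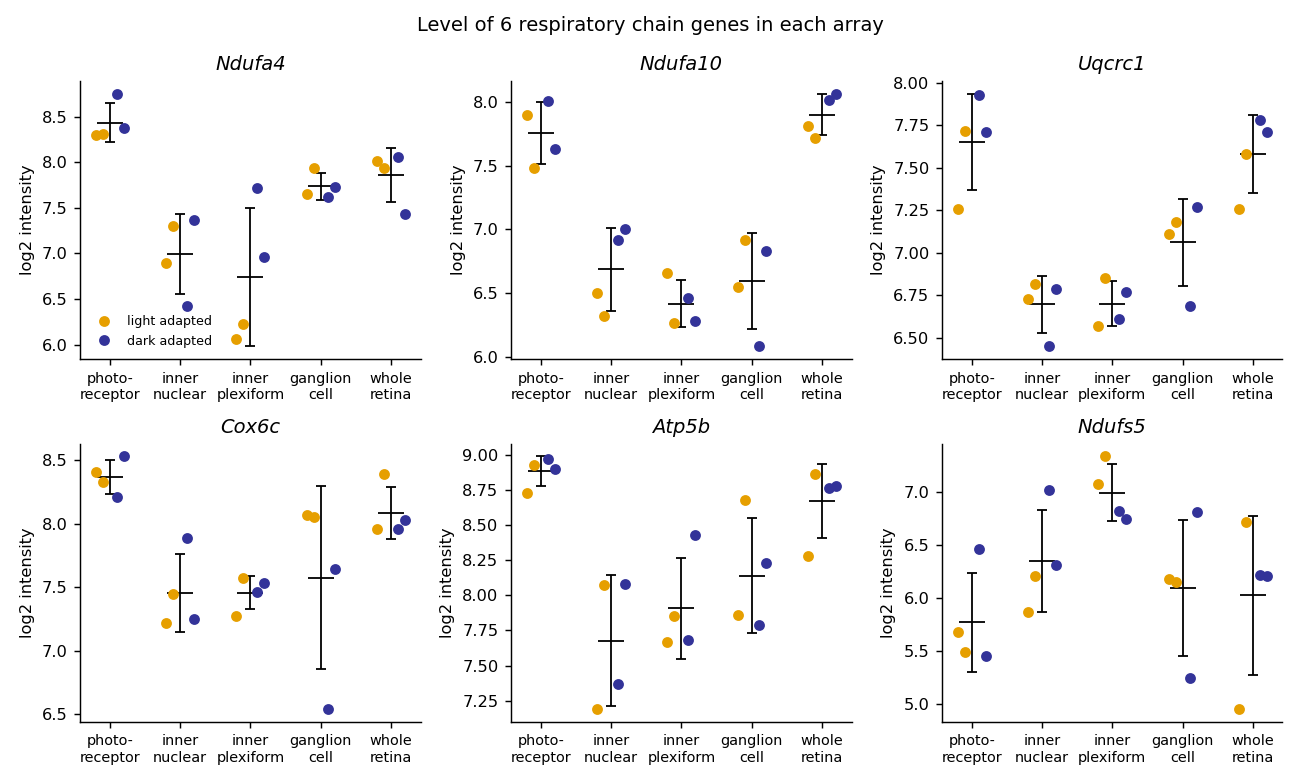
Log2 intensity of 6 subunit genes (Ndufa4, Ndufa10, Uqcrc1, Cox6c, Atp5b and Ndufs5) in each of the 20 arrays, by tissue; points are arrays (orange light adapted, blue dark adapted) and bars the mean ± SD of 4 arrays. For Ndufa4, Ndufa10, Cox6c and Atp5b the 4 photoreceptor layer arrays lie above all 12 arrays of the other layers, while Ndufs5 is lowest in mean there and highest in the inner plexiform layer.

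In complex I, 5 of 27 genes were higher in the photoreceptor layer, with a median difference of 0.16. Ndufa10, an accessory subunit, read 7.90, 7.48, 8.01 and 7.63 in the photoreceptor layer (light-adapted arrays first, here and below), and its lowest, median and highest values over the 12 other arrays were 6.08, 6.53 and 7.00. The groups did not overlap, and the difference was 1.19 ± 0.14 (limma adjusted p = 2.6e-05). Ndufs1, the largest core subunit, which carries iron-sulfur clusters of the electron path, was higher by 0.62 ± 0.19 (adjusted p = 0.038), with 6.79, 6.55, 6.31 and 6.28 against 5.39, 5.80 and 6.55. Its arrays overlapped those of the other layers. The accessory subunits Ndufb6 (0.85 ± 0.21), Ndufb11 (0.59 ± 0.16) and Ndufs4 (0.45 ± 0.14) were higher with overlap too, at adjusted p of 0.011, 0.018 and 0.043. A second probe set of Ndufb11 had a difference of 0.14, so its call rests on 1 of 2 probe sets.

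The other core subunits of complex I that were tested did not pass: Ndufs3 had 0.44 (adjusted p = 0.13), Ndufs7 0.30 (0.13), Ndufv1 0.22 (0.43) and Ndufs8 -0.20 (0.50). Over the 5 measured core subunits the median was 0.30, and over the 22 accessory subunits it was 0.07, with 1 and 4 genes called. Ndufs5 had the most negative difference of all 72 genes, -0.71 ± 0.29 (adjusted p = 0.11). Complex II had no call in this comparison: the flavoprotein Sdha, which holds the site of succinate oxidation, had 0.48 ± 0.20 (adjusted p = 0.13), and the membrane anchors Sdhc and Sdhd had -0.05 and -0.17.

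In complex III, Uqcrc1, a core protein facing the matrix, was the 1 gene of 8 called higher. It read 7.26, 7.72, 7.93 and 7.71 in the photoreceptor layer and 6.45, 6.78 and 7.27 (lowest, median and highest) in the other layers, where a single ganglion cell layer array topped the lowest photoreceptor array. The difference was 0.83 ± 0.13 (limma adjusted p = 0.00038). Its partner Uqcrc2 had 0.54 ± 0.24 (adjusted p = 0.16) and the Rieske iron-sulfur protein Uqcrfs1 0.23 ± 0.19 (adjusted p = 0.46). The median of the complex was 0.27.

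In complex IV, 1 of 15 genes was higher and the median was 0.05. Cox6c, a small nuclear-encoded subunit, read 8.41, 8.33, 8.21 and 8.53 against 6.54, 7.50 and 8.07 in the other layers. The groups did not overlap, the difference was 0.88 ± 0.17 (limma adjusted p = 0.0019), and a second probe set had 0.85. Cox4i1, Cox5a and Cox5b, larger nuclear-encoded subunits, had 0.38 ± 0.14 (adjusted p = 0.088), 0.47 ± 0.17 (0.084) and 0.38 ± 0.19 (0.20).

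In complex V, 2 of 17 genes were higher, with a median of 0.18, and 14 of the 17 differences were positive. Atp5b, the catalytic beta subunit of the ATP synthase, read 8.73, 8.93, 8.97 and 8.90 against 7.19, 7.86 and 8.68, without overlap, a difference of 0.97 ± 0.20 (limma adjusted p = 0.0029). The alpha subunit Atp5a1 and the central stalk subunit Atp5c1 had 0.51 ± 0.17 (adjusted p = 0.065) and 0.54 ± 0.18 (0.061). Atp5pb, the b subunit of the peripheral stalk, was higher by 0.88 ± 0.18 (adjusted p = 0.0028), but a second probe set of the gene had 0.05, and RefSeq lists a pseudogene named after it, so its value is uncertain.

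**Figure D2:**
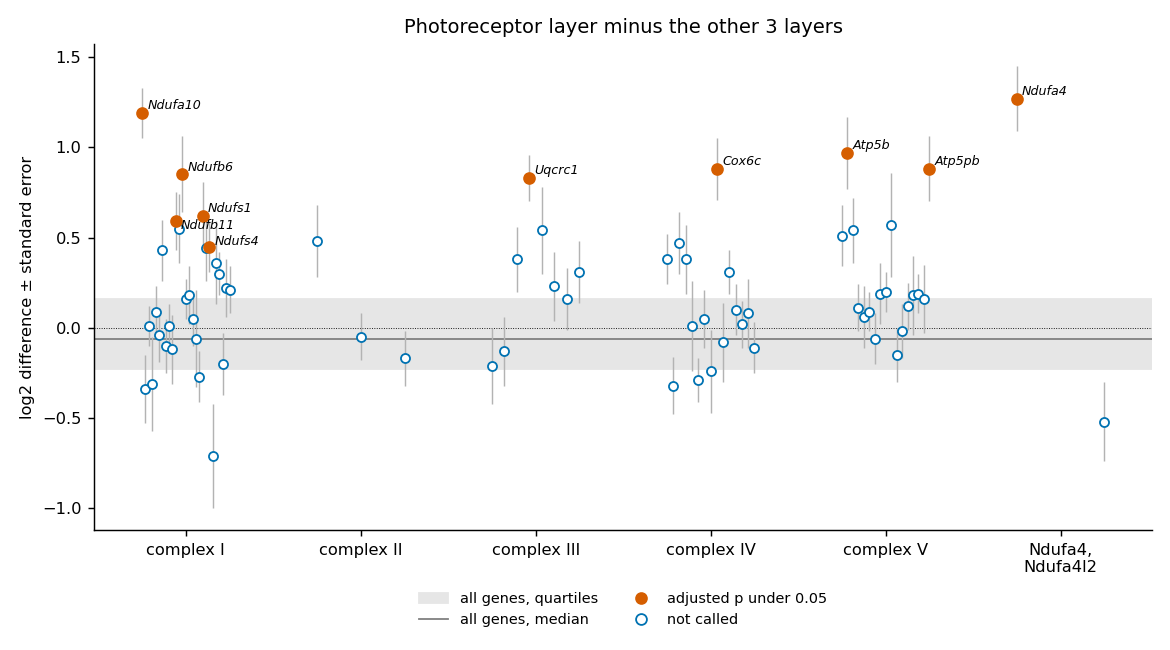
Log2 difference between the photoreceptor layer and the mean of the other 3 layers for the 72 genes tested, by complex; points are genes with the standard error, filled where the adjusted p is under 0.05, the grey band spans the quartiles of all 15057 genes and the line is their median. The 10 filled points all lie above 0, and 50 of 72 differences are positive.

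Averaged over a complex, with each gene centred on its own log2 mean over the 16 layer arrays, the tested complex V genes lay at 0.18 to 0.22 in the 4 photoreceptor arrays. Inner nuclear arrays gave -0.22 to -0.03 for complex V, inner plexiform arrays -0.30 to 0.09 and ganglion cell arrays -0.12 to 0.25. Among the inner layers only the ganglion cell range reached the photoreceptor values, and only at its upper end. The complex V mean of the ganglion cell arrays was 0.04 ± 0.17 (SD, n = 4). Complex IV lay at 0.01 to 0.16 in photoreceptor arrays and at -0.07 to 0.15 in ganglion cell arrays, which overlap, and whole-retina arrays gave -0.34 to -0.06. Over all 72 genes the photoreceptor mean was 0.15 ± 0.04 (SD, n = 4) and the inner nuclear mean -0.14 ± 0.04. Inner plexiform arrays averaged -0.02 ± 0.03, ganglion cell arrays 0.01 ± 0.10 and whole-retina arrays 0.02 ± 0.05. These averages describe the genes that passed the filter and carry no test.

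Altogether the arrays of 4 genes (Ndufa4, Ndufa10, Cox6c and Atp5b) lay higher in the photoreceptor layer without overlap, where 3.49% of all genes did so. Against single layers, 4 arrays against 4, 7 genes were higher than in the inner nuclear layer (4.07% of all genes were): Ndufa4, Atp5b, Ndufa10, Cox5a, Uqcrc1, Cox6c and Atp5c1. Against the inner plexiform layer 15 were higher, where 9.68% of all genes were, and 4 were lower, where 11.7% were: Ndufs5 (-1.23 ± 0.35), Ndufa4l2 (-1.02 ± 0.27), Ndufa11 (-0.80 ± 0.24) and Uqcr11 (-0.74 ± 0.24). Against the ganglion cell layer 3 were higher, where 4.57% of all genes were: Ndufa10 by 1.16 ± 0.18 (limma adjusted p = 0.00035), Cox6c by 0.80 ± 0.20 (0.021) and Uqcrc1 by 0.59 ± 0.16 (0.03). These 3 were also the ones higher than in every other layer taken singly, as 3.06% of all genes were. The 3 comparisons share the photoreceptor arrays.

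The 10 calls varied in how they held. Ndufa4 and Ndufa10 passed in all 34 other settings tried, Atp5b and Uqcrc1 in all but the fit of light-adapted arrays alone (adjusted p = 0.08 and 0.11), and Cox6c and Atp5pb in all but that of dark-adapted arrays alone (0.071 and 0.15). Ndufs1 kept its call in 17 of 34 and Ndufs4 in 16 of 33 settings. With replicate 2 of the light-adapted photoreceptor layer left out, 6 genes were called instead of 10. The 3 genes higher than in each layer singly were 1 without that array, 1 without replicate 2 of the dark-adapted photoreceptor arrays, and 1 without replicate 1 of either ganglion cell layer group. With the 5 arrays of Y-linked signal left out the counts were 7 and 1, and with both light-adapted arrays of the inner plexiform layer left out 9 and 2. All 13 measured rod markers were also higher in the photoreceptor layer and 9 of 11 Müller glia markers lower, and the part of this cell make-up in the subunit differences was not tested.

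The promoters of the genes called higher are shown for 4 of them: Ndufa4, which had the largest difference, and Uqcrc1, Ndufb6 and Ndufs4, which hold a match to at least 1 of 5 short motifs. The promoter of Atp5pb held a match too and is not shown. The motifs, searched on both strands from 250 bases before to 50 after the transcription start, were those known for the respiratory gene activator NRF1 (10 bases, of which 1 is free, in capitals in Uqcrc1 below), the ETS family that includes GABP (CCGGAAG) and the estrogen-related receptors (AAGGTCA), for the photoreceptor factor CRX (TAATCC) and for YY1 (AAGATGGC). Sequences are from RefSeq (GRCm38.p6), 300 bases written 5′ to 3′ along the gene's strand, with capitals marking motif matches: Ndufa4 at chr6:11907401-11907700 (minus strand), Uqcrc1 at chr9:108936398-108936697 (plus strand), Ndufb6 at chr4:40279372-40279671 (minus strand) and Ndufs4 at chr13:114388045-114388344 (minus strand).
Ndufa4: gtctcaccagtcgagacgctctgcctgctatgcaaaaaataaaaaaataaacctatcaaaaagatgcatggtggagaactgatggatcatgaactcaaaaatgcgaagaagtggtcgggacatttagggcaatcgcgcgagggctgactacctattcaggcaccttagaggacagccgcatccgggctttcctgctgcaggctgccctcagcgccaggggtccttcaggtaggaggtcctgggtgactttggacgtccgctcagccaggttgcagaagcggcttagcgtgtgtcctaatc
Uqcrc1: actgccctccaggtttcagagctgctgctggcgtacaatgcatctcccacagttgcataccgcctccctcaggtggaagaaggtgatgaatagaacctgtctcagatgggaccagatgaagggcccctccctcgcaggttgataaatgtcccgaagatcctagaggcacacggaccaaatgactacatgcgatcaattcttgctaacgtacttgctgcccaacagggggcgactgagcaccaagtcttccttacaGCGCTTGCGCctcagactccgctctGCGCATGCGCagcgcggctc
Ndufb6: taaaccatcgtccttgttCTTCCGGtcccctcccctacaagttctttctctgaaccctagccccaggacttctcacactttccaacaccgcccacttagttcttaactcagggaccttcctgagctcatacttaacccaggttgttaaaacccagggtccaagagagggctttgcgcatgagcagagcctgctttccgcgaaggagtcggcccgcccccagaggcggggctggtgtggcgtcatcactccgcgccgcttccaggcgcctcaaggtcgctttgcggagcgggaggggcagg
Ndufs4: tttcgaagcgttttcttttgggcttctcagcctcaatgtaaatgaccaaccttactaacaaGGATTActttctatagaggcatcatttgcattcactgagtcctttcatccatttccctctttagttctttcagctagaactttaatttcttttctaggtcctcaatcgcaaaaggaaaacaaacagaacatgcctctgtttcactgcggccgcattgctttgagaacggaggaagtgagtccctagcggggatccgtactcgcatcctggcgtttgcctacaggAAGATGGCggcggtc

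The Ndufa4 promoter held no match to any of the 5. In Uqcrc1 the capitals are 2 NRF1 matches, the first 5 bases and the second 30 bases from the start site, the second reading the same motif on both strands. Ndufb6 had an ETS match at -232, and Ndufs4 a CRX match at -189 and a YY1 match at 35. No match shown overlaps that of another motif.

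Promoters were found for 66 of the 81 genes (71 promoters, as 5 genes had more than 1). The NRF1 motif stood in 23.9% of these 71 promoters, against 4.6% of all 32851 promoters in the table, the ETS motif in 23.9% against 8.86%, the YY1 motif in 14.1% against 2.75%, the estrogen-related receptor motif in 9.86% against 4.72% and the CRX motif in 8.45% against 7.06%. Of the 8 genes called higher in the photoreceptor layer that have a promoter in the table, 1 held NRF1, 1 ETS, 0 the estrogen-related receptor motif, 1 CRX and 2 YY1 (Atp5pb and Ndufs4). Atp5b, Ndufa10 and Ndufb11 held none. Among the 50 other genes tested, 29.1% of 55 promoters held NRF1, 27.3% ETS, 10.9% the estrogen-related receptor motif, 9.09% CRX and 12.7% YY1. In the 8 promoters of the called genes the shares were 12.5% for NRF1, ETS and CRX alike, 0% for the estrogen-related receptor motif and 25% for YY1, each resting on at most 2 genes. A match describes the letters only, and its absence says only that those letters are not in this window.

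In the inner plexiform layer, where the processes of bipolar, amacrine and ganglion cells meet and few cell bodies lie, subunit genes went both ways: 5 lay above and 9 below the other layers' mean, or 6.94% and 12.5%, where 8.29% of all genes were higher and 5.29% lower. The median was -0.02, against 0.01 over all genes, and turned to 0.02 with quantile normalisation or median centring. This mean includes the photoreceptor layer, and both comparisons share arrays.

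The 5 higher genes were Ndufs5 (0.93 ± 0.29, limma adjusted p = 0.04) and Ndufa11 (0.72 ± 0.19, 0.021), accessory subunits of complex I, Uqcr11 (0.85 ± 0.19, 0.0084), a small subunit of complex III, Cox8a (0.40 ± 0.13, 0.046), the widely expressed form of the smallest oxidase subunit, and Ndufa4l2 (0.83 ± 0.22, 0.021), the relative of Ndufa4 known as a target of the hypoxia response. Uqcr11 read 9.45 and 9.07 in light and 8.80 and 8.37 in darkness, against 7.51, 8.12 and 8.58 (lowest, median and highest) in the 12 arrays of the other layers. Ndufs5 read 7.08, 7.34, 6.82 and 6.75 against 5.24, 6.17 and 7.02. For both genes the highest array of the other layers exceeded the lowest inner plexiform array. A second probe set of Uqcr11 had 0.72 and that of Ndufa11 0.04. The call of Cox8a was lost with quantile normalisation, and those of Cox8a and Ndufa4l2 with light-adapted arrays alone. Ndufa4l2 read 7.07 and 5.64 in light and 6.32 and 5.58 in darkness, against up to 5.79 in the inner nuclear layer.

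The 9 lower genes held 3 of complex I (Ndufb6, Ndufa10, Ndufs4), 3 of complex III (Uqcrc2, Uqcrb, Uqcrc1), 1 of complex IV (Cox7b), 1 of complex V (Atp5pb) and Ndufa4. Ndufb6 read 4.66, 4.26, 4.66 and 4.36, below the 12 other arrays at 4.71, 5.38 and 6.40, and was the only one of the 14 whose arrays did not overlap (0.465% of all genes were lower without overlap). The difference of Ndufb6 was -1.01 ± 0.21 (limma adjusted p = 0.005). Its inner plexiform readings were all under the filter's log2 5, as were those of Ndufs4, at 4.27 to 4.57, so both were dim there. Ndufa4 had -0.98 ± 0.18 (0.0021) and Atp5pb -1.04 ± 0.18 (0.0016), but the second probe set of Atp5pb had 0.18. Uqcrb, known as the ubiquinone-binding subunit, had -0.62 ± 0.18 (0.032), and its other 2 probe sets -0.68 and -0.69.

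The calls depended on the light-adapted arrays. Fitted alone, the light-adapted arrays gave 3 higher and 4 lower genes (11.4% of all genes were called), and the dark-adapted arrays 0 (0.0598% of all genes). With both light-adapted arrays of the layer left out, 0 genes were called, and 0.232% of all genes. Against the other 3 layers Ndufa4 had -1.59 in light and -0.37 in darkness, Atp5pb -1.77 and -0.31, Ndufs5 1.28 and 0.57, Uqcr11 1.23 and 0.48, and Ndufb6 -1.13 and -0.90. Leaving out replicate 1 of the light-adapted inner plexiform arrays left 7 calls and leaving out replicate 1 of the dark-adapted ones 6. Without the arrays with Y-linked signal 8 genes were called, 2 higher and 6 lower.

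**Figure D3:**
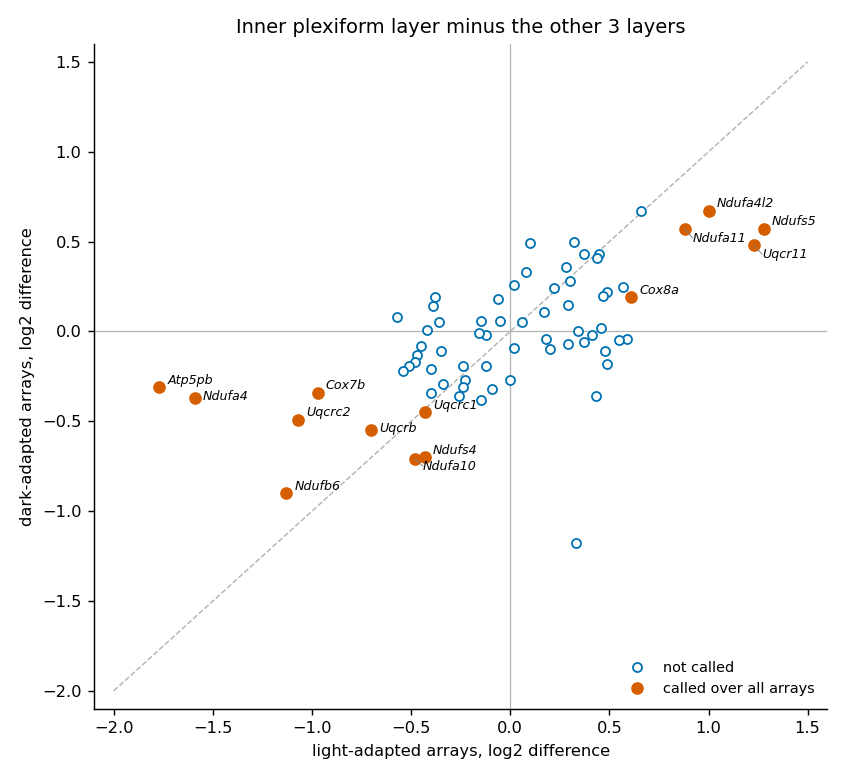
Log2 difference between the inner plexiform layer and the mean of the other 3 layers for each of the 72 genes in the light-adapted arrays and in the dark-adapted arrays. Ndufa4 and Atp5pb lie at -1.59 and -1.77 in light and at -0.37 and -0.31 in darkness, while Ndufb6 lies at -1.13 and -0.90.

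In the inner nuclear layer, the home of bipolar, horizontal, amacrine and Müller cell bodies, few genes exceeded the mean of the other layers: 11 of 72 (15.3%) had a positive difference, against 49% of all genes, and the median was -0.19, against 0. This mean includes the photoreceptor layer. A single gene passed limma's test, Cox5a, a nuclear-encoded oxidase subunit, with -0.80 ± 0.17 (adjusted p = 0.044), where 0.359% of all genes were lower and 0.252% higher. Cox5a read 4.92, 4.49, 4.83 and 5.54 against 5.15, 5.74 and 6.34 in the other layers, with overlap. This call held in 9 of 33 other settings. With single arrays left out it held in 5 of 20 fits: without replicate 2 of the light-adapted photoreceptor, dark-adapted inner nuclear (where 2 genes were then called), dark-adapted inner plexiform or light-adapted ganglion cell layer arrays, or replicate 1 of the ganglion cell layer in darkness. Leaving out any other array ended it, as did leaving out the arrays with Y-linked signal or both inner plexiform arrays from light. At an unadjusted p under 0.05 there were 14 genes (10.3% of all genes had one), Ndufa4 (-0.64, adjusted p = 0.14), Atp5b (-0.63, 0.20) and Atp5c1 (-0.60, 0.18) among them.

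In the ganglion cell layer limma called 0 genes, where 1.17% of all genes were higher and 0.704% lower. Unadjusted p-values under 0.05 were found for 3 (and for 10.8% of all genes): Cox7b, a small oxidase subunit, with 0.46 ± 0.14 (adjusted p = 0.14), Ndufa6 with 0.38 ± 0.17 (0.39) and Ndufa10 with -0.36 ± 0.14 (0.32). Between the layers other than the photoreceptor layer few genes were called. The inner plexiform layer was lower than the ganglion cell layer in 4 (1.29% of all genes), Ndufb6, Ndufa4, Atp5pb and Cox7b, and the inner nuclear layer lower than the inner plexiform layer in 2 (3.23% of all genes), Uqcr11 and Cox8a.

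The whole retina was set against the mean of the 4 layers, each layer counting alike. Here complexes parted: 8 of 17 complex V genes were higher and 3 lower, while in complex IV 0 of 15 were higher and 6 lower. Over all complexes 17 of 72 genes were higher and 14 lower (23.6% and 19.4%), in a comparison in which 19.9% of all genes were higher and 28.6% lower. The median was 0.35 in complex V, -0.27 in complex IV, -0.09 in complex I (6 higher, 3 lower), -0.10 in complex III (2 higher, 1 lower) and -0.18 over all genes. Whether complexes IV and V differ was not tested. With only genes over log2 7 kept, the median over the subunits tested turned from -0.10 to 0.20 and that of complex III to 0.26.

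Cell type markers moved with this comparison too. The summed rod markers were at 7902 to 8686 in the whole retina, below the photoreceptor layer and above the 1335 to 3484 of the other layers. Higher in the whole retina than in the mean of the layers were 12 of 13 rod, 5 of 8 cone and 6 of 11 Müller glia markers, with 0 lower. Higher and lower counts were 5 and 1 of 9 bipolar, 3 and 1 of 9 amacrine, 3 and 1 of 6 horizontal and 1 and 2 of 11 ganglion cell markers. They were 1 and 1 of 8 endothelial and pericyte markers. For pigment epithelium they were 0 and 4 of 7, for microglia 0 and 2 of 5 and for astrocytes 0 and 1 of 3. Over all genes 19.9% were higher and 28.6% lower. The part of this cell make-up in the subunit differences was not tested. The labels do not say how the whole retina was collected, so a difference in collection and one in tissue cannot be told apart.

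Ndufs1 read 6.92, 7.53, 7.19 and 7.25 in the whole retina against 5.39, 6.03 and 6.79 (lowest, median and highest) in the 16 layer arrays. It was the only higher gene whose arrays did not overlap those of the layers, as 5.33% of all genes did not, with 1.20 ± 0.18 (limma adjusted p = 0.00011). Ndufa10 (1.04 ± 0.14), Ndufs4 (0.77 ± 0.14), Ndufb6, Ndufb5 and the core subunit Ndufs7 were the other complex I genes that were higher, and Ndufa13 (-0.72 ± 0.25), Ndufv3 and Ndufb7 were lower. The call of Ndufs7 was lost with quantile normalisation and without the arrays with Y-linked signal. Sdha was higher by 0.70 ± 0.20 (adjusted p = 0.0087). Both core proteins of complex III were higher, Uqcrc2 by 0.96 ± 0.23 and Uqcrc1 by 0.55 ± 0.13, and Uqcr11 was lower with -0.76 ± 0.19 (adjusted p = 0.0038).

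In complex V the large subunits of the catalytic head and its central stalk were higher, Atp5a1 by 0.77 ± 0.17 (limma adjusted p = 0.0017), Atp5b by 0.52 ± 0.19 (0.033) and Atp5c1 by 0.53 ± 0.17 (0.02). The stalk subunits Atp5j (0.81 ± 0.28), Atp5pb (0.80 ± 0.17) and Atp5h (0.35 ± 0.11) were higher too, with Atp5l (0.50 ± 0.13), although the second probe set of Atp5pb had -0.10. Of the 3 genes for the c subunit, which forms the rotor ring and has the same mature protein whichever gene it comes from, Atp5g3 was higher by 0.50 ± 0.17 (0.022), Atp5g1 lower with -0.45 ± 0.11 (0.0039), and Atp5g2 had -0.31 ± 0.13 (0.068). Atp5j2 and Atp5k were lower, with -0.45 and -0.50.

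The 6 lower genes of complex IV were Cox7a1 (-0.66 ± 0.21), Cox8c (-0.64 ± 0.14), Cox6b2 (-0.62 ± 0.22), Cox8a (-0.58 ± 0.12), Cox6a2 (-0.50 ± 0.12) and Cox6b1 (-0.39 ± 0.16). The call of Cox6b1 was lost with quantile normalisation, median centring, no filter and no intensity trend. Among them Cox6a2 and Cox7a1 are the forms known from heart and skeletal muscle, and Cox6b2 and Cox8c are known from testis. In the whole retina Cox7a1 read 3.54 to 4.58, Cox8c 4.78 to 5.24 and Cox6b2 4.58 to 5.72, near or under the filter's log2 5. Brighter there were Cox8a, at 6.75 to 7.03, Cox6b1, at 5.60 to 6.04, and Cox6a2. The part of dim signal in the lower calls was not tested. Cox6a2 read 6.90, 6.87, 6.93 and 7.08, below all 16 layer arrays at 7.11, 7.42 and 8.09, where 4.52% of all genes lay lower without overlap (limma adjusted p = 0.0033). Ndufa4l2, with 4.89, 4.08, 4.87 and 4.80 against 4.91, 5.51 and 7.07, also lay below every layer array, a difference of -0.87 ± 0.22 (0.0043), while Ndufa4 had 0.38 ± 0.17 (0.07).

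**Figure D4:**
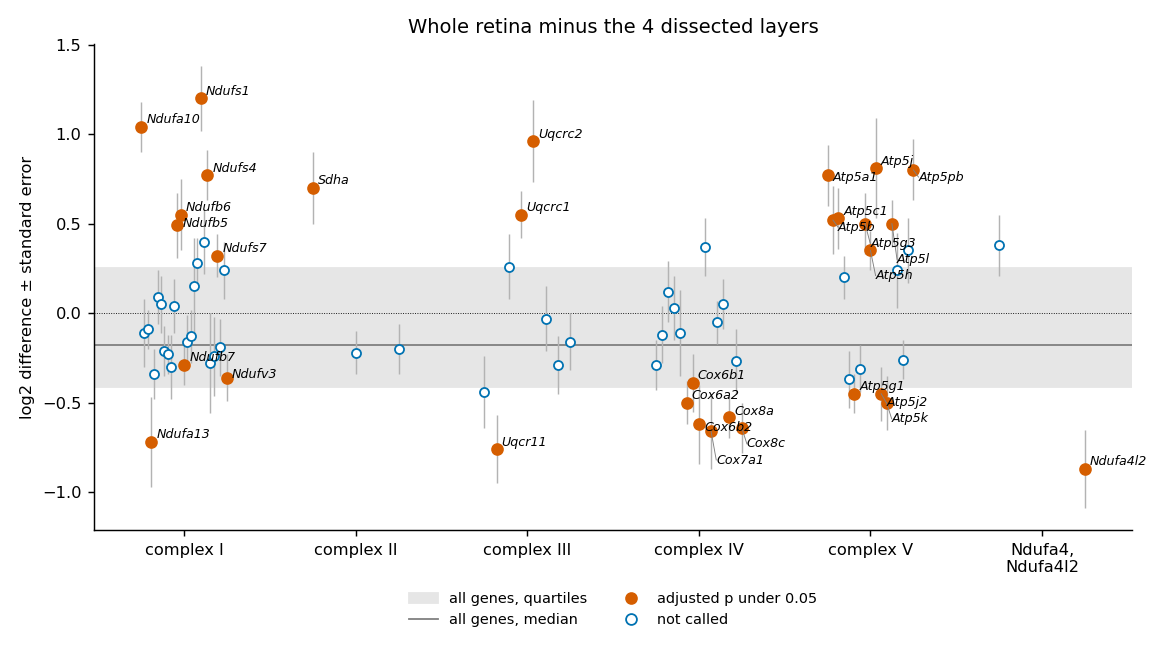
Log2 difference between the whole retina and the mean of the 4 layers for the 72 genes, by complex, with standard errors; filled points have an adjusted p under 0.05, the grey band spans the quartiles of all genes and the line is their median of -0.18. Complex V has 8 filled points above 0 and 3 below, complex IV 6 below and none above.

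Brightness moved with these directions. Of the 36 brighter genes, split at a mean log2 intensity of 6.6, 13 were higher and 6 lower, and of the 36 dimmer ones 4 were higher and 8 lower. The part of brightness in the difference between complexes was not tested. Complex IV had 0 higher and 5 lower genes after quantile normalisation and 1 and 5 after median centring, and complex V 6 and 5 and 8 and 3. Without replicate 2 of the light-adapted whole retina 13 genes were called in place of 31, without replicate 1 or 2 of the dark-adapted ones 18 or 17.

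Several subunits exist in pairs of tissue forms. For subunit 4 the common Cox4i1 had a photoreceptor layer difference of 0.38 ± 0.14 and the lung and hypoxia form Cox4i2 -0.32 ± 0.16 (limma adjusted p = 0.088 and 0.22). For subunit 6a the common Cox6a1 had 0.01 and the muscle form Cox6a2 -0.29 (0.98 and 0.14), and for subunit 6b Cox6b1 had 0.05 and Cox6b2 -0.24 (0.87 and 0.54). Cox7a1 had -0.08 and Cox7a2l, a supercomplex factor related to subunit 7a, 0.31 (0.86 and 0.11), and Cox7b had 0.10 (0.72). Cox8a, Cox8b and Cox8c had 0.02, 0.08 and -0.11, and Atp5g1, Atp5g2 and Atp5g3 0.09, -0.06 and 0.19. None of these passed the test. Ndufa4 and Ndufa4l2 were called in opposite directions in the inner plexiform layer, where the Ndufa4l2 call was lost with either adaptation state fitted alone. In the photoreceptor layer Ndufa4l2 had -0.52 ± 0.22 (0.14).

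Darkness raises the energy use of rods, because their cation channels then stay open, and the comparison of dark with light adaptation asks whether subunit transcripts differ between the 2 states. With 2 arrays against 2 in each tissue, limma called 1 gene in 1 tissue: Atp5pb in the inner plexiform layer, where 0.717% of all genes were higher in darkness and 1.12% lower. It read 5.49 and 5.10 in light and 6.52 and 7.11 in darkness, without overlap, a difference of 1.52 ± 0.31 (adjusted p = 0.025). This call was lost without replicate 1 or 2 of the light-adapted arrays or replicate 2 of the dark-adapted arrays of that layer, with array weights, and with only the 4 arrays of the comparison. It rests on the probe set of Atp5pb whose layer differences the second probe set did not share. That second probe set was not compared on its own between darkness and light, so the value is uncertain here too. In the same layer Ndufa4 had 1.19 ± 0.30 (adjusted p = 0.054) and Cox7b 0.88 ± 0.25 (0.078).

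In the photoreceptor layer limma called 0 genes (0.0465% of all genes in either direction) and 0 had an unadjusted p under 0.05, as 1.49% of all genes did. Of the 72 differences 36 were positive, with a median of 0. The inner nuclear layer had 0 calls (0% of all genes) and 3 unadjusted p-values under 0.05 (3.14%), the ganglion cell layer 0 (0.00664%) and 4 (4.08%), and the whole retina 0 (0.0266%) and 1 (0.897%). The summed rod markers of the inner nuclear layer were at 1335 to 1408 in light and at 2091 to 3066 in darkness. Their part in the dark minus light differences of that layer was not tested. Averaged over the 5 tissues there were 0 calls (0.0133%) and 6 unadjusted (6.11%). The F test of whether the dark effect differs between tissues gave 0 calls (0.0266%). A p-value that misses the threshold does not show that levels were alike in light and darkness. The arrays with Y-linked signal were all light adapted. In the ganglion cell layer both light-adapted arrays had it (306.2 and 192.2) and neither dark-adapted array did (12.35 and 10.95). There, adaptation and this signal cannot be told apart. In the photoreceptor layer the dark minus light difference of Ndufa4 was 0.25 ± 0.30 and that of Ndufa4l2 0.40 ± 0.39.

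Whether a layer's distance from the other 3 depends on adaptation was asked in an interaction test added after the values were seen. In the inner plexiform layer 0 genes passed (0.173% of all genes did) and 7 had an unadjusted p under 0.05 (13.7% of all genes). Atp5pb had 1.46 ± 0.35 (limma adjusted p = 0.096) and Ndufa4 1.22 ± 0.35 (0.14). So the loss of calls in darkness is not shown to be a difference between the states. In that layer the summed intensity of 11 Müller glia markers was 1139 to 1627 in light and 1784 to 2238 in darkness, with 2 of 11 called higher in darkness, and that of 9 bipolar markers 1080 to 1110 and 1212 to 1386, with 1 of 9 called. Their part in the subunit differences was not tested.

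**Figure D5:**
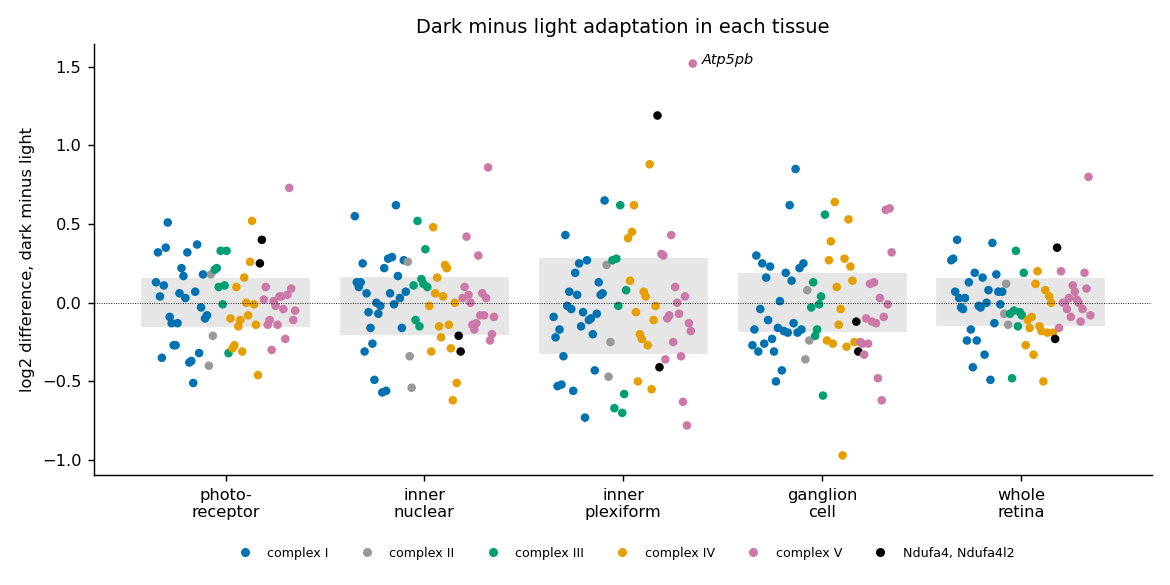
Log2 difference between dark- and light-adapted arrays for the 72 genes in each of the 5 tissues, coloured by complex, with the quartiles of all genes in grey. Atp5pb in the inner plexiform layer, at 1.52, is the 1 gene with an adjusted p under 0.05, and in the photoreceptor layer the median is 0.

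Genes that work around the complexes were taken from lists chosen alongside the subunits. Counts of calls are to be read against all genes, of which 7.26% were higher and 5.69% lower in the photoreceptor layer. There, 1 of 5 carriers of electrons, adenine nucleotides or phosphate was higher, the ATP/ADP translocase Slc25a5 (0.94 ± 0.12, limma adjusted p = 3.6e-05). Of 35 assembly factors 2 were higher, the mitochondrial mRNA stability factor Lrpprc (0.98 ± 0.18) and Ndufaf4 (0.76 ± 0.20), which helps build complex I, a smaller share than over all genes. The regulators of mitochondrial biogenesis had 2 of 13 higher, the orphan receptor Esrrb (2.83 ± 0.18, adjusted p = 1.6e-08) and the coactivator Ppargc1a (1.43 ± 0.24, 0.00053). The outer membrane channel Vdac2 (1.5 ± 0.29), the mitochondrial creatine kinase Ckmt1 (0.82 ± 0.17) and the import receptor Tomm20 (0.50 ± 0.15) made 3 of 11, and Chchd3, part of the cristae organising complex, 1 of 9 (1.02 ± 0.18). Among 17 genes of the citric acid cycle and pyruvate dehydrogenase 0 were higher and 1 lower, pyruvate carboxylase Pcx (-0.51 ± 0.12). The median differences of these lists were 0.09 to 0.47.

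In the inner plexiform layer, where 5.29% of all genes were lower and 8.29% higher, lower calls were made for 3 of 5 carriers, Slc25a4 (-1.15 ± 0.32), Slc25a3 and Slc25a5. The citric acid cycle had 3 of 17 lower, Mdh1 (-0.72 ± 0.14), Idh3a and Ogdh, and the creatine kinase and outer membrane list 3 of 11, Vdac2 (-1.26 ± 0.29), Tomm70a and Tomm20. Single lower calls, Esrrb (-0.82 ± 0.18) of 13 regulators and Lrpprc (-0.62 ± 0.18) of 35 assembly factors, were near or under the share over all genes, and so was the 1 higher assembly factor, Cox20 (0.70 ± 0.20). The dynamics list had 0 of 9 called. In the whole retina, where 19.9% of all genes were higher and 28.6% lower, the higher and lower counts were 3 and 0 of 5 carriers, 7 and 2 of 17 citric acid cycle genes, 4 and 3 of 13 regulators, 5 and 2 of 11 in the creatine kinase and outer membrane list and 4 and 2 of 9 in dynamics and cristae. Assembly factors had 5 and 3 of 35, both smaller shares than over all genes. By smallest p these included Lrpprc (1.72 ± 0.17), Slc25a3 (1.28 ± 0.15), Idh3a (0.90 ± 0.12), Esrrb (1.43 ± 0.17), Vdac2 (2.19 ± 0.29) and Opa1 (1.07 ± 0.20).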

How the data were processed

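Total RNA was labelled by 2 rounds of amplification into biotinylated cRNA and hybridised to Affymetrix gene arrays, per the labels' protocols. The deposited values are intensities that the authors made with GCRMA (version not given), per the submitters' processing notes, for 35557 probe sets. GCRMA corrects background by probe sequence and normalises between arrays, which sets dim probe sets near a common low level. The linear scale was read from the values (array medians of 37.5 to 40.8). Intensities under 8 were set to 8, which applied to 11.3% to 14.1% of an array's values, and log2 was taken. The platform table gave 21789 probe sets 1 symbol, 1621 several and did not list 12147. The subunits matched 105 probe sets with 1 symbol, and 6 more with several symbols were not used. Genes with a probe set over log2 5 on at least 2 arrays were tested, each by its brightest probe set.

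All tests came from 1 limma fit (limma 3.58.1, R 4.3.3) with 10 group means, 10 residual degrees of freedom and an intensity trend. The tests were two-sided, and p-values were adjusted by Benjamini-Hochberg over the genes of a comparison. The fit was tested on simulated data in which every array varied independently, so deviations shared by same-numbered arrays were not covered. The number of arrays limits the precision. No pair of arrays held identical values. The subunits, lists and markers were chosen with earlier results of these data known. Named are Ndufa4, core subunits, isoform pairs, up to 3 of the largest and smallest called differences per complex (the smallest p where none was called), and up to 4 called genes per list by smallest p. Other called subunits, and values set beside them, were named after they were seen.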

Additional observations from a re-analysis of the deposited data

How the results depend on the processing

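No gene called in a tissue against the mean of other tissues, or in darkness, changed sign under the settings tried, but medians near 0 did. The subunit median of the inner plexiform layer (-0.02) was 0.02 with quantile normalisation and with median centring, 0.01 with light-adapted arrays alone and 0.01 to 0.03 in 5 fits without single arrays, and the filter at log2 7 turned the whole-retina median from -0.10 to 0.20. Several medians of single complexes and of dark against light turned as well. Counts of called genes, leaving out 1 array at a time, ran from 6 to 14 for the photoreceptor layer (10 with all arrays), 0 to 2 for the inner nuclear layer (1), 6 to 15 for the inner plexiform layer (14), 1 to 4 for genes higher in the photoreceptor layer than in each other layer singly (3), 13 to 33 for the whole retina (31) and 0 to 2 for dark against light in the inner plexiform layer (1). They stayed at 0 for the ganglion cell layer, the other 4 dark comparisons within a tissue, their mean and the F test. A group left with 1 array is assumed to vary like the others. In the order of the counts that moved, array weights gave 16, 0, 8 and 5 for the first 4 and 0 for darkness. Light-adapted arrays alone gave 4, 0, 7, 0 and 14 for the first 5, and dark-adapted arrays alone 4, 0, 0, 0 and 7. Without the arrays with Y-linked signal the inner nuclear count was 0, the inner plexiform count 8 and the count against each layer singly 1, and with both light-adapted arrays of the inner plexiform layer left out the inner nuclear and inner plexiform counts were 0. The inner nuclear count was also 0 with log2 of the intensity plus 16, no filter, a filter at log2 7, no intensity trend and only the arrays of the 4 layers. The filter at log2 7 gave 5 against each layer singly and 2 for darkness, and only the arrays of the comparison 0 for darkness. The causes were not tested, other than that fewer arrays or genes entered some fits.

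With the replicate number as a block the counts were 15, 3, 15, 5 and 34, and 3 for darkness in the inner plexiform layer, and 0 wherever they were 0 without it. Of 45 pairs of groups 32 had deviations of same-numbered arrays that correlated over 0.1 (0.0059 to 0.48, median 0.13). All 45 were above 0 but not all over 0.1, and the labels do not say what a number marks, so it was not taken as a pairing. Quantile normalisation, median centring and the mean of probe sets kept all counts above 0 within 1.5 times. Dark comparisons were not run where leaving out arrays removed the light-adapted group of a tissue.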
